A study of Homo sapiens with 18 samples.

Results

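The HOX genes and the PBX and MEIS genes, whose proteins bind DNA together with HOX proteins, were followed in A549 cells, an established line from a human lung carcinoma whose cultures faced air on their upper side and medium below. The genes are those that a probeset names with exactly 1 symbol of the HOXA, HOXB, HOXC or HOXD clusters or of the PBX or MEIS genes. They came to 34 of 19775 such genes, with 55 of 54675 probesets: 28 HOX genes (HOXA2, 10 of HOXB, 9 of HOXC and 8 of HOXD), PBX2, PBX3 and PBX4, and MEIS1, MEIS2 and MEIS3. Other genes of these clusters and families were not analysed here. Each gene was represented by its brightest probeset, chosen by mean log2 signal over all 18 arrays. Of PBX2 every probeset was taken, since earlier results on its 0.1 ppm comparisons selected it. Its values at 0.1 ppm are therefore a description, with no test.

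All cultures were kept in a humidified atmosphere for 72 h, in an exposure chamber or in a parallel reference chamber that received no formaldehyde. Each concentration of the exposure chamber, 0, 0.1 or 0.5 ppm, was run in 3 experiments. This gave 6 groups of 3 arrays: exposure chamber at 0 ppm and its reference, exposure chamber at 0.1 ppm and its reference, and exposure chamber at 0.5 ppm and its reference. The question at each concentration was whether the exposure chamber differed from its own reference chamber and from the exposure chamber at 0 ppm. The comparison at 0 ppm held no formaldehyde on either side and measured the chambers themselves. A comparison between exposure chambers set different experiments against each other, so variation between experiments entered it along with concentration. The paper states that the order of the experiments was randomized.

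HOX genes encode homeodomain transcription factors and lie in 4 clusters on chromosomes 7 (HOXA), 17 (HOXB), 12 (HOXC) and 2 (HOXD). Low-numbered genes pattern anterior parts of the embryo and high-numbered ones posterior parts and limbs, and the order along the chromosome follows the order along the body. Adult cells keep a part of this pattern as a memory of where they came from, held by Polycomb and Trithorax complexes. PBX and MEIS proteins are homeodomain proteins of the TALE class. PBX binds DNA side by side with HOX proteins and narrows the sites they choose, and MEIS binds PBX, keeps it in the nucleus and can join the complex. In the lung, HOX genes of the anterior and middle groups act in branching of the embryonic airway, as is known from the mouse.

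Promoter sequences of RefSeq (GRCh38.p14, 250 bases before to 50 after the transcript start) were at hand for 17 of the 34 genes, in 19 windows of 300 bases. Clusters of the dinucleotide CG mark promoters that Polycomb and Trithorax complexes can bind, so CG was counted. The 3 windows that follow show a HOXD gene of high signal, a HOXD gene that was never above the array median, and a start shared by a bright and a dim HOXC gene, with CG in capitals. The window of HOXD8, at chr2:176129455-176129754 on the plus strand, held 34 CG. That of HOXD12, at chr2:176099545-176099844 on the plus strand, held 19, and the start shared by HOXC4 and HOXC5, at chr12:54016638-54016937 on the plus strand, held 15.
HOXD8: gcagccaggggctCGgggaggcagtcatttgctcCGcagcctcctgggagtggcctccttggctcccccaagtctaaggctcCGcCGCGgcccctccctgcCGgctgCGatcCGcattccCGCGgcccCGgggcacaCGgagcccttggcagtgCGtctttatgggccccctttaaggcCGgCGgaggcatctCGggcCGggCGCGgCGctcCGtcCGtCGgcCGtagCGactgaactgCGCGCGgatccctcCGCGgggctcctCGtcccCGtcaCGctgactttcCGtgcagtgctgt
HOXD12: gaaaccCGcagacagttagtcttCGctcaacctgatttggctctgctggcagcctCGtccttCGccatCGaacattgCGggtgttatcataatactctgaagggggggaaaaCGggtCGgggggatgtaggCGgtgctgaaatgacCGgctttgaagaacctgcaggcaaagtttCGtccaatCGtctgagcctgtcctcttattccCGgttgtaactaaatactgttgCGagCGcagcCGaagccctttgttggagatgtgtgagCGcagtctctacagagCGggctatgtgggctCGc
HOXC4 and HOXC5: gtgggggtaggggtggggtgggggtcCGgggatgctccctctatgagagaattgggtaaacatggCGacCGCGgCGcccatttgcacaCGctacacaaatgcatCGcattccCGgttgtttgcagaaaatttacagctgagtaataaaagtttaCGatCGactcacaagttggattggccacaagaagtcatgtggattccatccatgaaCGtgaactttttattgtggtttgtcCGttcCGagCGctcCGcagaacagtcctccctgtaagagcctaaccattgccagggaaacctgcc

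The window of HOXA2, at chr7:27102634-27102933 on the minus strand, held both binding motifs searched, shown in capitals. They were TGATTNAT, which PBX and HOX proteins bind together, and TGACAG, which MEIS proteins bind, each searched on both strands.
HOXA2: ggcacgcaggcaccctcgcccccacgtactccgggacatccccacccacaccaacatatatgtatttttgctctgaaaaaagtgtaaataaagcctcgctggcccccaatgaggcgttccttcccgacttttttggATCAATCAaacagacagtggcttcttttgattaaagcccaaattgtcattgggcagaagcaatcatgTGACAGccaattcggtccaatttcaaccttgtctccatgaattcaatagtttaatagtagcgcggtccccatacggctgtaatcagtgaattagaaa
The PBX and HOX motif stood in 3 of the 19 windows (HOXA2, HOXD11 and 1 of the 2 windows of MEIS2) and in 2.82% of all 35116 RefSeq promoters. The MEIS motif stood in 3 windows (HOXA2, HOXD4 and PBX3) and in 15.8% of all promoters. CG counts ranged from 8 (PBX2) to 43 (PBX3) among the 10 windows of genes above the array median on all 18 arrays and from 11 (HOXB1) to 36 (HOXD1) among the 4 windows of genes above it on none, against a median of 14 over all promoters. The ranges overlapped, so CG count did not separate bright from dim members.

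The median signal of the 18 arrays ranged from 26.7 to 34.02, and the number of arrays limits the precision. Of the epithelial markers of A549 cells, 10 of 11 measured were above the array median on all 18 arrays, and the other, the keratin KRT19, on 15. Of the fibroblast markers 7 of 8 and of the endothelial markers 5 of 6 were above it on no array, as were the immune cell markers PTPRC, CD3E and MS4A1. The exceptions above the median on all arrays were COL1A1, CD14 and LYZ. The 5′ probeset of actin, which drops where RNA is broken or its copying stops early, was low on 2 arrays, at 5.90 (log2) in the reference chamber at 0.1 ppm, replicate 1, and 6.85 in the reference at 0 ppm, replicate 3, against 7.75 to 9.70 elsewhere. Results without them are given for PBX2, HOXC12, the HOXC cluster and the counts of genes that passed. Differences of other single genes are not given without them.

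A549 cells carried a broad HOXB signal, a partial HOXC signal and little HOXD signal besides HOXD8 and, on most arrays, HOXD4. Above the array median on all 18 arrays were 7 of 10 HOXB genes (HOXB2, HOXB3 and HOXB5 to HOXB9), 4 of 9 HOXC genes (HOXC4, HOXC6, HOXC9 and HOXC13), HOXD8 alone of 8 HOXD genes, and HOXA2, PBX2, PBX3 and all 3 MEIS genes. Never above it were HOXB1, which acts in the hindbrain, HOXC11, HOXC12, HOXD1, HOXD11 and HOXD12. The other 10 genes passed it on 1 to 17 arrays. In all, 52.9% of the 34 genes were above the median on every array, against 56.6% of all 19775 genes and 3.57% (1 of 28) of a list of genes that belong to other tissues.

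**Figure D1:**
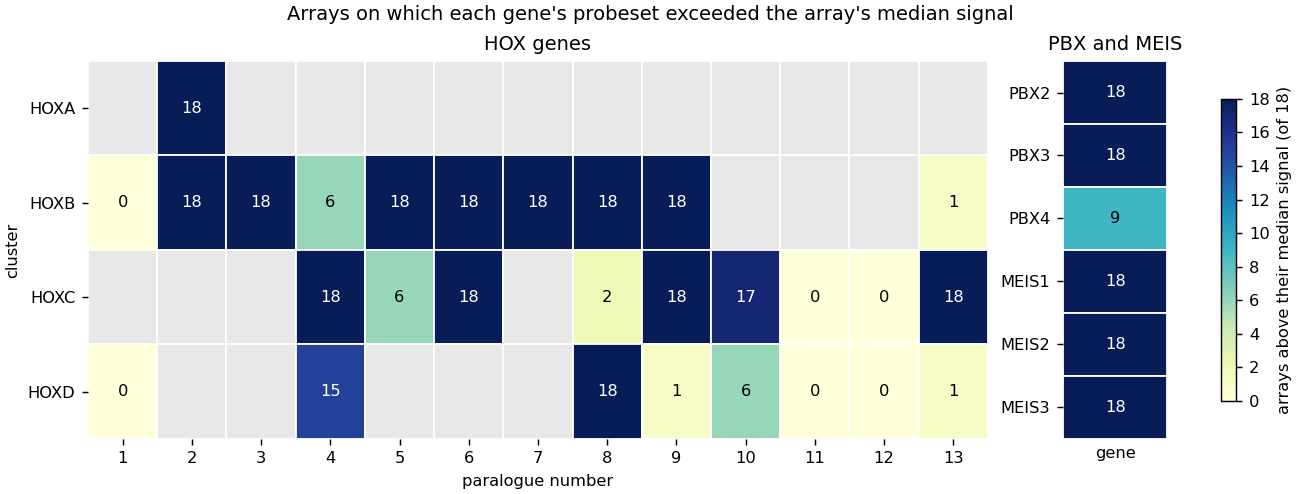
Number of arrays, of 18, on which the brightest probeset of each gene was above its array's median signal, by HOX cluster and gene number, with grey squares for genes that do not exist or were not analysed here, and for 6 PBX and MEIS genes. HOXB2, HOXB3 and HOXB5 to HOXB9 are at 18 of 18, while in the HOXD cluster HOXD8 alone reaches 18.

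Along the HOXB cluster the signal of the brightest probesets was continuous from HOXB2 to HOXB9 except at HOXB4, which was above the median on 6 arrays. HOXB4 was read by 1 probeset. Dimmer probesets were above the median on 0 arrays (HOXB3), 1 (HOXB6), 4 (HOXB8 and HOXB9), 16 (HOXB5) and 18 (both of HOXB7). Levels of different genes thus compare different probesets, and how each reads its gene was not tested. HOXB7, a gene much studied in carcinomas, had signals of 2456, 1926 and 2488 in the exposure chamber at 0 ppm and 2134, 3045 and 3154 in its reference. At 0.1 ppm it had 2258, 2375 and 1450.5 in the exposure chamber and 2786, 2420 and 2848 in the reference, and at 0.5 ppm 2135, 2323 and 1664 in the exposure chamber and 2543, 1808 and 2392 in the reference. The groups overlapped at 0 and 0.5 ppm and did not at 0.1 ppm, where the log2 difference was -0.43 (SE 0.37) and did not pass the test. The share of all genes whose groups do not overlap was not determined. With so few arrays a group, separation can arise by chance. For this gene and those below, a lack of overlap is therefore a description, with no test. Here and below, fewer cells that express a gene and less RNA per cell cannot be told apart. HOXB8 ranged from 642 to 1538 and HOXB3 from 257 to 732 over the 18 arrays. At the other end HOXB1 stayed between 0.430 and 13.1.

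In the HOXC cluster the bright genes did not form a run. HOXC4, HOXC5 and HOXC6 have a common annotated start at position 54016888 of chromosome 12 (GRCh38.p14), yet HOXC4 and HOXC6 were above the median on all arrays and HOXC5 on 6. Each was read by 1 probeset, and how these differ in reading their genes was not tested. HOXC4 had signals of 509, 470 and 454 in the exposure chamber at 0 ppm and 559, 682 and 426 in its reference. At 0.1 ppm it had 371, 814 and 328 in the exposure chamber against 309, 882 and 1691 in the reference, and at 0.5 ppm 836, 550 and 276 in the exposure chamber against 1421, 407 and 356 in the reference. Its signal spread most among the 18 bright genes, with a within-group SD of 0.82 on the log2 scale, and groups overlapped throughout. HOXC6 ranged from 144 to 345, and HOXC13, known for its part in hair and nails, from 104 to 223. HOXC11 was lowest, between 0.479 and 17.1.

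HOXD8 stood alone in its cluster. It had signals of 1537, 2161 and 2119 in the exposure chamber at 0 ppm and 1595, 1953 and 2019 in its reference. At 0.1 ppm the exposure chamber had 1524, 1106 and 1986 against 1784, 1082 and 1917 in the reference, and at 0.5 ppm the exposure chamber had 1581, 1313 and 2264 against 1612, 1369 and 2178 in the reference. All 6 groups overlapped, and the differences between chambers were 0.05, -0.05 and -0.01 at 0, 0.1 and 0.5 ppm. HOXD4 was above the array median on 15 arrays (13.1 to 75.8) and HOXD10 on 6 (9.38 to 43.5). The next genes toward the posterior end, HOXD11 to HOXD13, were above it on at most 1.

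Of the partner genes, MEIS2, whose protein is a partner of PBX in many tissues, had the lowest within-group SD of all 34. It had signals of 1904, 1921 and 2019 in the exposure chamber at 0 ppm and 1993, 2295 and 2034 in its reference. At 0.1 ppm the exposure chamber had 2115, 1736 and 1611 against 2116, 1959 and 2134 in the reference, and at 0.5 ppm the exposure chamber had 1827, 1953 and 1944 against 1976, 1768 and 1639 in the reference. Its within-group SD was 0.12 on the log2 scale and its differences between chambers were -0.11, -0.19 and 0.09 at 0, 0.1 and 0.5 ppm. MEIS1, a cofactor known from leukaemias with high HOXA9, ranged from 94.1 to 203, PBX3, another partner of HOX proteins in leukaemia, from 102 to 327 and PBX4, known mainly from the testis, from 7.96 to 46.6. HOXA2, which acts in the hindbrain and the branchial arches and was the measured gene of its cluster, ranged from 133.4 to 234.

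MEIS3 had signals of 64.9, 65.1 and 62.4 in the exposure chamber at 0.5 ppm and 94.6, 78.1 and 99.1 in its reference, and these groups did not overlap. The difference of -0.49 (SE 0.22) did not pass the threshold in limma (unadjusted p = 0.0742, adjusted p = 1.00). In the exposure chamber at 0 ppm the signals were 81.2, 112 and 60.3, which overlapped with those at 0.5 ppm. With 32 added to each signal, or with dim probesets left out before the fit, this probeset of MEIS3, 228327_x_at, did pass. The other MEIS3 probeset, 1569402_at, was above the array median on 4 arrays and went the other way. Its mean log2 signal was 4.15 (SD 1.05) in the exposure chamber at 0.5 ppm and 3.96 (SD 1.02) in its reference.

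The 4 probesets of PBX2 (chr6:32184733-32190202, GRCh38.p14) did not move together. PBX2 is expressed in most tissues. Probeset 211096_at had signals of 22.5, 9.18 and 13.5 in the exposure chamber at 0.1 ppm, against 74.3, 28.4 and 35.9 in its reference and 30.1, 65.5 and 71.6 in the exposure chamber at 0 ppm. Every array of the exposure chamber at 0.1 ppm was below every array of either other group. The log2 differences were -1.59 (SE 0.55) and -1.89 (SE 0.50), and they share the same 3 exposed arrays. Without the reference array of low actin signal, which had the 74.3, the first was -1.18. At 0.5 ppm the same probeset had 31.2, 36.2 and 49.4 in the exposure chamber and 13.7, 38.4 and 14.2 in its reference, and in the reference at 0 ppm it had 25.2, 52.5 and 40.9. These overlapped, with differences of 0.97 (SE 0.49) between chambers at 0.5 ppm, -0.45 (SE 0.42) between the exposure chambers at 0.5 and 0 ppm, and 0.46 (SE 0.48) between chambers at 0 ppm.

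The bright probesets of PBX2 had overlapping groups at 0.1 ppm. Probeset 202876_s_at had signals of 1028, 1213 and 910 in the exposure chamber at 0.1 ppm, 999.6, 1185 and 1317 in its reference, and 1066, 737 and 1203 in the exposure chamber at 0 ppm. Probeset 202875_s_at had 468, 756 and 952 in the exposure chamber at 0.1 ppm, 376, 729 and 860 in its reference, and 704, 629 and 710 in the exposure chamber at 0 ppm. The log2 differences from the reference and from 0 ppm were -0.15 and 0.09 for 202876_s_at and 0.17 and 0.03 for 202875_s_at. Probeset 211097_s_at, which the platform annotation ties to the same sequence record as 211096_at and which was above the array median on 2 arrays, had 18.5, 23.2 and 20.9 in the exposure chamber at 0.1 ppm against 38.9, 14.6 and 29.7 in the reference and 21.0, 27.6 and 21.4 at 0 ppm, with differences of -0.30 and -0.15. Thus 1 of 4 probesets carried the low values at 0.1 ppm. That probeset was above the array median on 11 of 18 arrays, against 18 for each of the bright probesets.

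**Figure D2:**
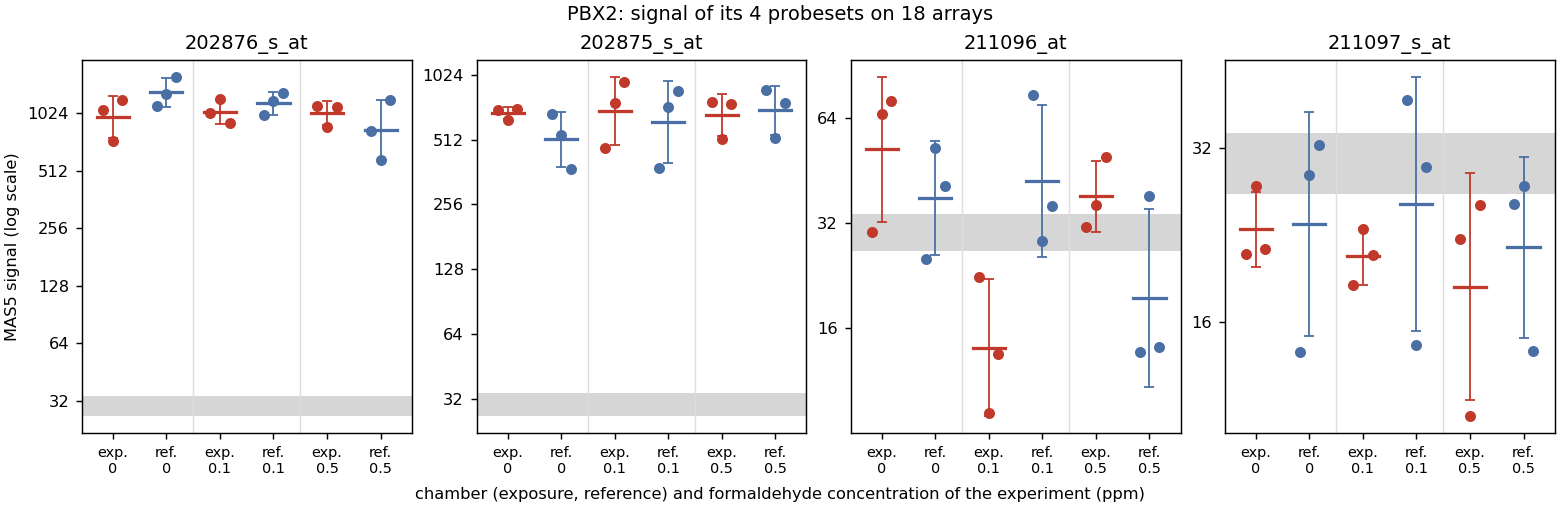
Signal (log scale) of the 4 PBX2 probesets on each of the 18 arrays as points, by chamber (red, exposure; blue, reference) and concentration in ppm, with the mean and SD of the log2 signals of 3 arrays and the range of array medians as a grey band. Probeset 211096_at lies at 9.18 to 22.5 in the exposure chamber at 0.1 ppm, below both groups it is set against, while 202876_s_at lies at 910 to 1213 there, within the range of its other groups.

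At the threshold of the study, an unadjusted p under 0.05 (here in limma), few of the 34 genes passed in any comparison. Between the exposure chamber and its reference the count was 0 at 0 ppm, where 3.69% of all genes passed, 0 at 0.1 ppm (2.99% of all genes) and 0 at 0.5 ppm (3.05%). Between the exposure chamber at 0.1 and at 0 ppm, HOXB4 and HOXD12 passed, both higher at 0.1 ppm (3.55% of all genes). Between 0.5 and 0 ppm HOXD12 passed, higher at 0.5 ppm (3.60%). These comparisons between exposure chambers set different experiments against each other. The paper counted a transcript only if it passed both against its reference and against 0 ppm, but not between chambers at 0 ppm. None of the 34 brightest probesets met that rule, since none passed between chambers at 0.1 or 0.5 ppm. In the tests of whether the difference between chambers was another one than at 0 ppm, 0 passed at 0.1 ppm (2.49% of all genes) and HOXC12 passed at 0.5 ppm (2.88%). In the test over all 6 groups 0 passed (3.23%). Counts of 0 to 2 of 34 stand near these shares of all genes. With the experiment as a block, which pairs the chambers, HOXB4 passed between chambers at 0 ppm, in the chamber difference at 0.1 ppm and over the 6 groups (1 gene each), and HOXB1 and HOXC12 in the chamber difference at 0.5 ppm (2 genes). After Benjamini-Hochberg adjustment in limma 0 of the 34 genes and 0 of all probesets passed in any comparison, and the lowest adjusted p of any probeset lay between 0.110 and 0.435.

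**Figure D3:**
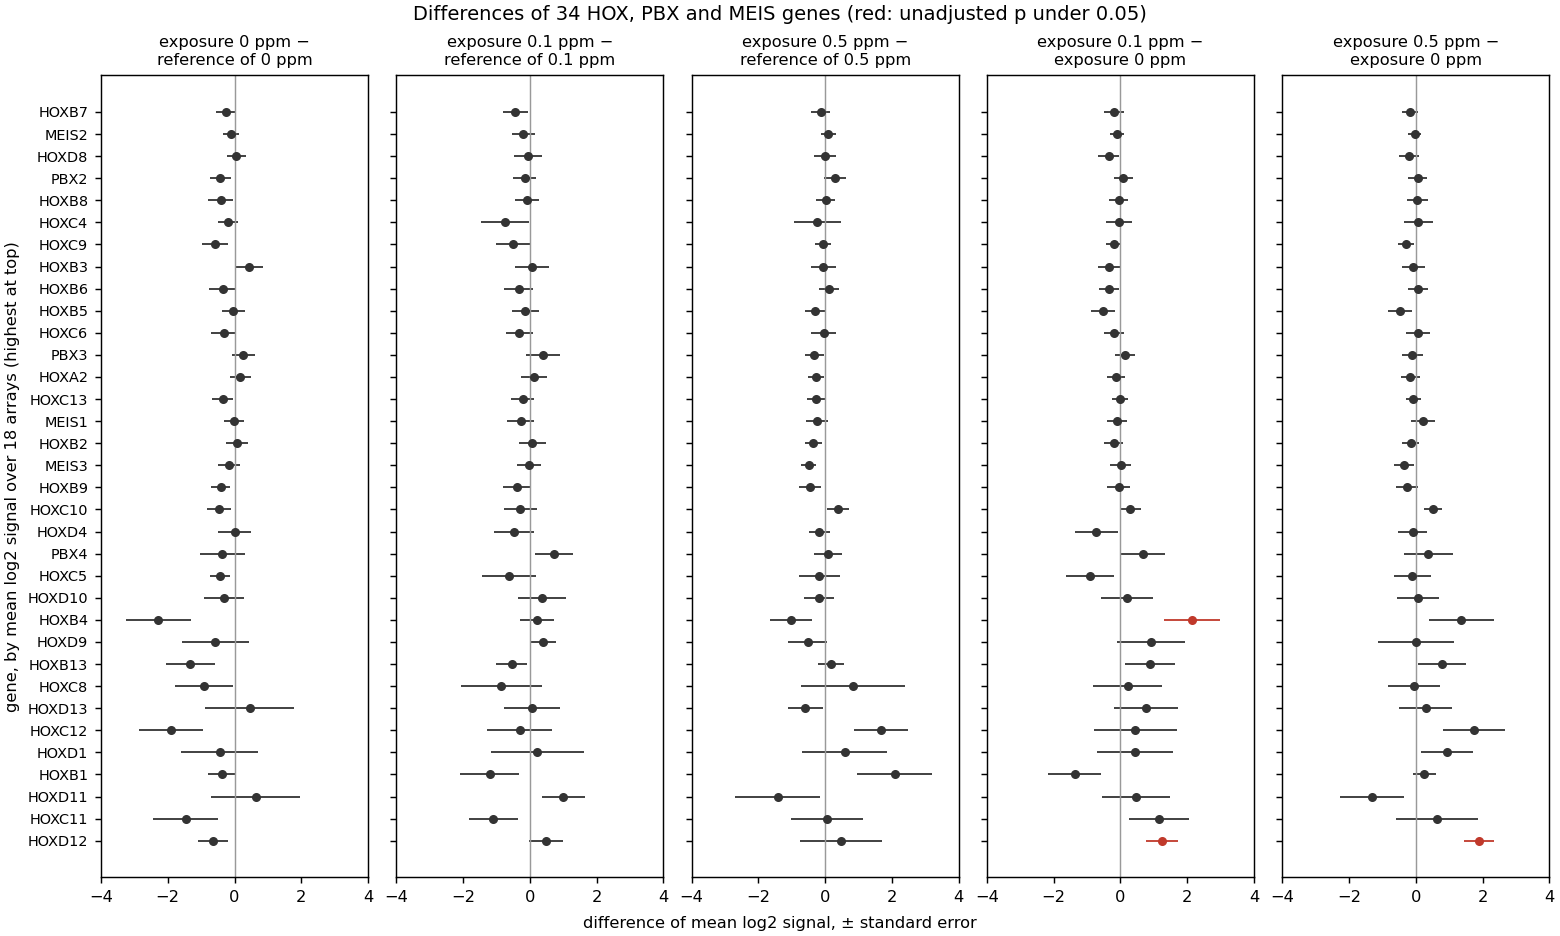
Log2 difference (points) with its standard error (bars) for the brightest probeset of each of the 34 genes, from the highest mean signal at the top to the lowest, in the 3 comparisons between exposure and reference chamber and the 2 of the exposure chamber with that at 0 ppm. The 18 genes at the top lie between -0.74 and 0.45 throughout, and the points in red, which passed, are HOXB4 and HOXD12.

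HOXB4 (chr17:48575507-48578350, GRCh38.p14), best known for its part in blood stem cells, had signals of 27.6, 18.1 and 33.8 in the exposure chamber at 0.1 ppm and 6.19, 1.87 and 17.3 in that at 0 ppm. These groups did not overlap. The log2 difference was 2.13 (SE 0.84, unadjusted p = 0.0463 and adjusted p = 1.00 in limma). The reference chamber had 12.5, 25.1 and 34.9 at 0.1 ppm and 13.6, 25.3 and 67.9 at 0 ppm. The exposed arrays at 0.1 ppm thus lay within the range of both reference groups, and 2 of the 3 arrays of the exposure chamber at 0 ppm, at 6.19 and 1.87, were below every array of these groups. At 0 ppm the chambers differed by -2.29 (SE 0.98, unadjusted p = 0.0587 and adjusted p = 0.880 in limma). The reference array with 67.9 had low actin signal, and the difference without that array is not given. At 0.5 ppm the exposure chamber had 6.10, 24.0 and 23.5 and its reference 23.7, 28.1 and 44.8. Between 0.1 and 0 ppm HOXB4 passed in 1 of 6 fits that left out an array (without replicate 3 of the exposure chamber at 0 ppm, 2.91), and the difference was 1.31 without replicate 2 of the exposure chamber at 0 ppm. The raw-data label of that array carries another date than the labels of the other 17.

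HOXD12 (chr2:176099795-176102489, GRCh38.p14), a gene of the posterior end that acts in limbs, was at the bottom of the scale on every array. It had signals of 0.528, 0.575 and 0.738 in the exposure chamber at 0 ppm, 1.798, 2.29 and 0.732 at 0.1 ppm and 1.86, 4.25 and 1.49 at 0.5 ppm. The groups at 0.5 and 0 ppm did not overlap, and those at 0.1 and 0 ppm did. The difference was 1.91 (SE 0.45) at 0.5 ppm, with an unadjusted p = 0.00629 and adjusted p = 0.779 in limma, and 1.25 (SE 0.48) at 0.1 ppm, with an unadjusted p = 0.0432 and adjusted p = 1.00. The reference chambers had 0.608, 1.68 and 0.837 at 0 ppm, 1.02, 0.931 and 1.15 at 0.1 ppm and 1.20, 0.384 and 9.65 at 0.5 ppm. All of its signals were below 10, where the array median was 26.7 or more. With 32 added to every signal the differences were 0.08 at 0.5 ppm and 0.04 at 0.1 ppm, and neither passed. As deposited, the difference at 0.5 ppm passed in 6 of 6 fits without an array and that at 0.1 ppm in 1 of 6 (without replicate 3 at 0.1 ppm, 1.74).

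HOXC12 (chr12:53954903-53958956, GRCh38.p14), of the posterior end of its cluster, had signals of 11.95, 16.5 and 9.001 in the exposure chamber at 0.5 ppm and 9.51, 5.05 and 1.13 in its reference. At 0 ppm it had 8.76, 6.32 and 0.861 in the exposure chamber and 14.2, 8.35 and 20.8 in its reference. The arrays of the exposure chamber were thus mostly above their reference at 0.5 ppm, with a difference of 1.68 (SE 0.82), and mostly below it at 0 ppm, with -1.90 (SE 0.95). Neither passed alone, while the difference between both, 3.58 (SE 1.34), did (unadjusted p = 0.0238, adjusted p = 1.00 in limma). It passed in 9 of 12 fits without an array. Without the reference array at 0 ppm of low actin signal it was 3.26 (unadjusted p = 0.0550 in limma), without the reference array of replicate 3 at 0.5 ppm 2.70, and without the exposed array of replicate 2 at 0.5 ppm 3.35, none of which passed. At 0.1 ppm the signals were 1.30, 6.67 and 14.0 in the exposure chamber and 10.04, 8.33 and 2.74 in the reference, which overlapped. HOXC12 was above the array median on no array.

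**Figure D4:**
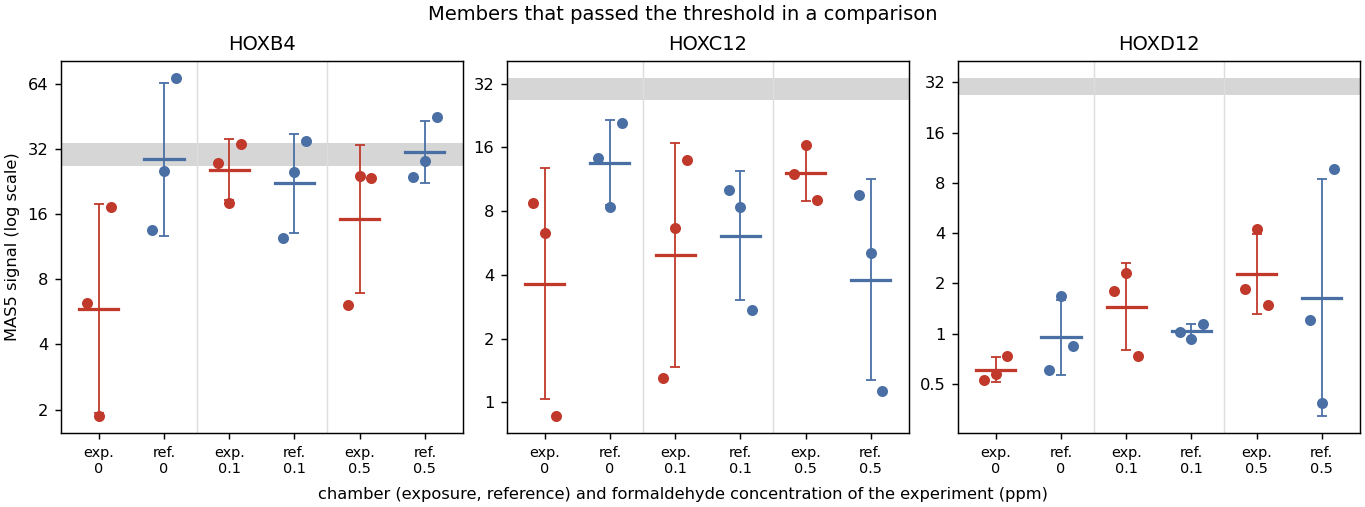
Signals (log scale) of HOXB4, HOXC12 and HOXD12 on each of the 18 arrays as points, by chamber (red, exposure; blue, reference) and concentration in ppm, with the mean and SD of the log2 signals of 3 arrays and the 26.7 to 34.02 range of array medians as a grey band. HOXD12 and HOXC12 lie below that range on every array, and HOXB4 has its lowest mean in the exposure chamber at 0 ppm.

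The spread between arrays followed the level of the signal. The median within-group SD was 0.35 on the log2 scale among the 18 genes above the array median on all arrays, 0.83 among the 10 genes above it on some, and 1.33 among the 6 genes above it on none. Among the 18 bright genes, differences between exposure and reference chamber ran from -0.58 (HOXC9) to 0.45 (HOXB3) at 0 ppm, from -0.74 (HOXC4) to 0.40 (PBX3) at 0.1 ppm and from -0.49 (MEIS3) to 0.29 (PBX2) at 0.5 ppm. Against the exposure chamber at 0 ppm they ran from -0.53 (HOXB5) to 0.13 (PBX3) at 0.1 ppm and from -0.48 (HOXB5) to 0.22 (MEIS1) at 0.5 ppm. HOXB5 acts in airway branching in the mouse. None of the 18 passed the threshold in any of these comparisons. The differences between chambers at 0 and 0.1 ppm include the reference arrays of low actin signal. HOXC9, HOXB3 and PBX3 lay outside all other arrays on both of these, and their differences without them are not given.

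By cluster, all 9 HOXC genes had lower mean log2 signals in the exposure chamber than in the reference at 0 ppm, where there was no formaldehyde, with a median difference of -0.47. All 9 were lower at 0.1 ppm too, with a median of -0.50. With 32 added to each signal these medians were -0.29 at 0 ppm and -0.20 at 0.1 ppm. As deposited, the HOXC median of each array spread by 0.54 at 0 ppm and 0.82 at 0.1 ppm. This spread is the root of the summed variances of both groups, and it exceeded the size of either difference. The 9 genes were read on the same arrays, so their shared direction is a description, with no test. At 0.5 ppm 5 of 9 were lower, with a median of -0.04, and after quantile normalization 3 of 9 were lower, with a median of 0.03. Over all genes 57.6%, 57.1% and 56.1% were lower at 0, 0.1 and 0.5 ppm, with medians of -0.10, -0.09 and -0.04. Without both arrays of low actin signal, 9 of 9 HOXC genes were lower at 0 ppm (median -0.51) and 6 of 9 at 0.1 ppm (median -0.29). Of the HOXD genes 4 of 8 were lower at 0 ppm, 2 of 8 at 0.1 ppm (median 0.30) and 6 of 8 at 0.5 ppm. Of all 34 genes 26 were lower in the exposure chamber at 0 ppm, 22 at 0.1 ppm and 21 at 0.5 ppm. None of these single differences between chambers passed the threshold.

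Several members stood apart on the arrays of low actin signal. HOXC9, a posterior gene of the HOXC cluster, had 1191 in the reference at 0.1 ppm, replicate 1, and 1080 in the reference at 0 ppm, replicate 3, against 338 to 737 on the other 16 arrays. Both of these arrays were above all others for 5 of 34 genes (HOXB6, HOXB13, HOXC9, HOXC10 and HOXC11), where 20.0% of all genes behaved so, and below all others for 3 (HOXB2, HOXB3 and PBX3), where 12.8% of all genes did. HOXB6 had 724 and 927 there against at most 607 elsewhere, and HOXB3 had 265 and 257 against at least 335. PBX3 had 102 and 139 against at least 176. The shares of the members, 5 and 3 of 34, were not above those of all genes. The part of these arrays in other results on these genes was not tested beyond leaving them out.

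**Figure D5:**
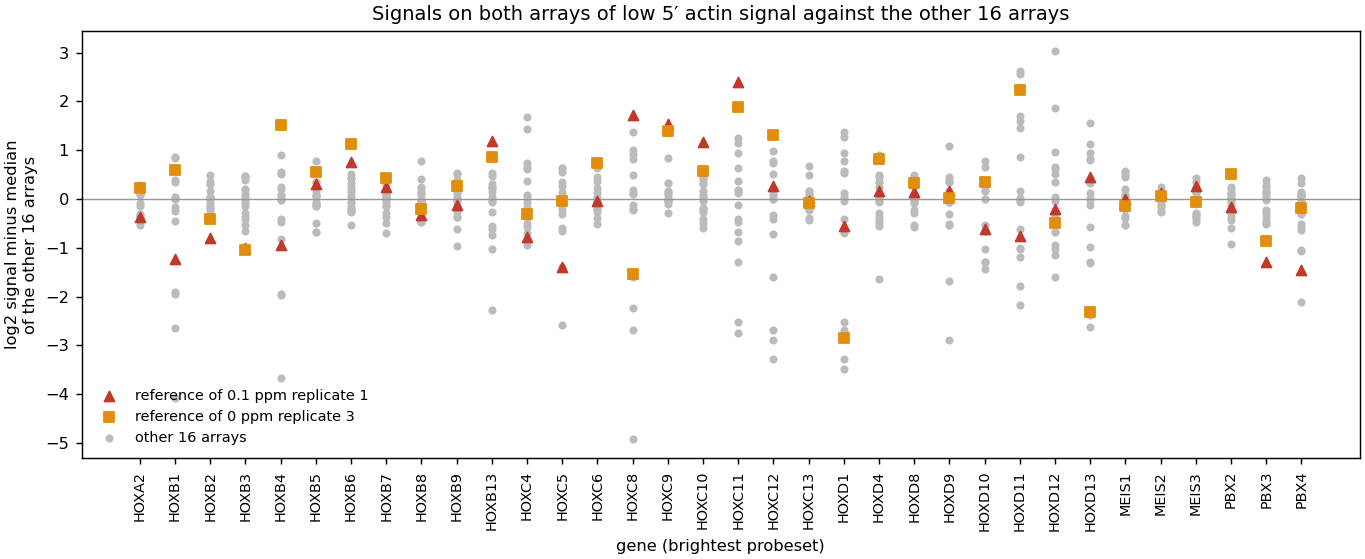
Log2 signal of each of the 34 genes on both arrays of low 5′ actin signal (red triangles and orange squares) and on the other 16 arrays (grey), minus the median of those 16. Both marked arrays are highest for HOXB6, HOXB13, HOXC9, HOXC10 and HOXC11, and lowest for HOXB2, HOXB3 and PBX3.

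Probesets other than the brightest one gave different readings of the same gene. Of the 18 such probesets outside PBX2, 1 passed between chambers at 0 ppm (4.84% of all probesets passed), 2 at 0.1 ppm (4.00%), and 4 at 0.5 ppm (3.92%). Between exposure chambers 1 passed at 0.1 against 0 ppm (4.47%) and 0 at 0.5 against 0 ppm (4.56%). They were HOXB3 208414_s_at at 0 and 0.5 ppm, HOXB1 208224_at, HOXD1 205974_at and HOXD10 238847_at at 0.5 ppm, HOXB8 221278_at and HOXB13 209844_at at 0.1 ppm, and HOXD4 1552337_s_at between 0.1 and 0 ppm. They were picked out after their values were seen. Of these probesets, HOXB8 221278_at was above the array median on 4 arrays and the others on no array. HOXB3 208414_s_at had signals of 2.61, 7.68 and 3.52 in the exposure chamber at 0 ppm and 21.3, 14.1 and 23.0 in its reference, and of 4.04, 8.33 and 4.47 in the exposure chamber at 0.5 ppm against 17.95, 15.0 and 14.8 in its reference. The exposure chamber was lower with no overlap at 0 and 0.5 ppm, by differences of -2.20 and -1.57. At 0.1 ppm the probeset had 2.71, 24.5 and 2.07 in the exposure chamber and 6.50, 7.56 and 15.8 in its reference, which overlapped, with a difference of -0.83 (SE 1.00) that did not pass. On the brightest HOXB3 probeset, 228904_at, the differences were 0.45 (SE 0.40) at 0 ppm and -0.06 (SE 0.37) at 0.5 ppm, which did not pass.

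HOXD10, a posterior gene read by several probesets, showed the same disagreement. Its brightest probeset, 229400_at, had signals of 25.6, 12.5 and 28.6 in the exposure chamber at 0.5 ppm and 25.4, 16.1 and 32.1 in its reference, with a difference of -0.17 (SE 0.45). The groups overlapped fully. Probeset 238847_at differed by -2.20 and passed, with mean signals of 1.33 in the exposure chamber at 0.5 ppm and 5.17 in its reference. In the same groups 207373_at had 0.793, 2.99 and 5.34 against 0.895, 0.559 and 0.808. Both were above the array median on no array. At 0.1 ppm 229400_at had 9.38, 31.8 and 40.2 in the exposure chamber and 16.6, 32.3 and 10.46 in the reference, which overlapped as well.

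Genes that maintain or read the HOX pattern were bright, with 1 exception. All 24 measured Polycomb genes, which keep HOX genes silent, and all 25 measured genes of Trithorax and other HOX activators were above the array median on all 18 arrays, and 0 of either list passed in any of the 5 comparisons between groups, where 2.99% to 3.69% of all genes passed. At these shares, lists of 24 and 25 genes would hold few calls or none. Their median log2 differences between chambers were 0.07 (Polycomb) and -0.01 (Trithorax) at 0 ppm, 0.18 and 0.02 at 0.1 ppm, and -0.01 and -0.03 at 0.5 ppm. Of 16 partners and modifiers of HOX and PBX proteins 15 were above the median on all arrays and ZFPM2 on 8. Of these 16, 0 passed in the 5 comparisons between groups and 1 passed in the test over all 6 groups (3.23% of all genes). The lists were drawn up with earlier results of these data known.

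Calls in the other lists fell mostly on dim genes. In the 5 comparisons between groups 2.99% to 3.69% of all genes passed, so lists of 11 to 18 genes would hold few calls or none. Of 18 TALE and ParaHOX genes outside the members 6 were above the median on all arrays and 11 on none, and PDX1 at 0 ppm (2.27, higher in the exposure chamber), CDX1 at 0.1 ppm (-1.87) and EVX1 at 0.5 ppm (1.34) passed between chambers, each above the array median on no array. Of 18 genes of retinoic acid signalling, which switches HOX genes on in the embryo, 1 passed in each of the 5 comparisons between groups. They were CRABP2 between chambers at 0.5 ppm (-1.20), the receptor RXRB at 0.1 ppm against its reference (-0.94) and against 0 ppm (-1.10), and the retinal dehydrogenase ALDH1A2 between chambers at 0 ppm (-1.78) and between 0.5 and 0 ppm (1.92). Of 11 noncoding RNAs of the HOX clusters, HOXA-AS3 passed at 0.1 ppm against its reference (-2.03, SE 0.83) and against 0 ppm (-2.79, SE 0.74), both resting on the same exposed arrays, and HOTAIR, from the HOXC cluster, against 0 ppm (-1.08, SE 0.40). HOXA-AS3 was above the array median on 2 arrays and HOTAIR on none. No adjusted p of these genes in limma was under 0.05.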

How the data were processed

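Total RNA of 18 A549 cultures (9 experiments, 1 culture from each chamber) was amplified, labelled and hybridised by the authors to whole-genome 3′ expression arrays. The deposited values are MAS5 signals, an intensity per probeset on a linear scale, which the authors scaled array by array; such scaling leaves low signals noisy. Groups were taken from the labels. Log2 signals were compared in R 4.3.3 with limma 3.58.1 (lmFit and eBayes over all 54675 probesets), on the 6 arrays of each comparison, on 12 arrays for the tests of chamber differences, and on 18 for the moderated F test. The threshold was the study's unadjusted p under 0.05, applied to each comparison alone, with Benjamini-Hochberg adjustment over all probesets beside it. The p-values measure the spread between 3 arrays a group, 1 per experiment. A probeset was assigned to a gene where the platform annotation gives exactly 1 symbol (41097 probesets). The brightest probeset by mean log2 signal stood for a gene. Probesets of a gene disagreed in places, as reported. Beside all PBX2 probesets, the PBX and MEIS genes and each gene that passed, the 3 brightest genes and the dimmest gene of each HOX cluster and HOXD10 were to be named. Members, gene lists and this rule were chosen with earlier results of these data known. The procedure was tested on simulated data.

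Both chambers of an experiment ran in parallel, and arrays of both chambers that share a replicate number were read as 1 experiment and paired. Deviations from the group means of paired arrays correlated by -0.02 to 0.12, over 0.1 in 1 of 9 pairs. Exposure chambers of different concentrations share only a number, and those with the same number correlated by -0.03 to 0.08. Alternatives were an added constant of 32, quantile normalization, a filter on dim probesets, 1 fit of all arrays, the replicate block, the mean over a gene's probesets, and leaving out arrays.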

Additional observations from a re-analysis of the deposited data

Results flagged for a closer look

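The log2 difference between exposure and reference chamber of HOXC12 at 0.5 ppm differed from that at 0 ppm by 3.58 (SE 1.34), which passed an unadjusted p under 0.05 in limma but not after adjustment (adjusted p = 1.00). The difference was 1.68 at 0.5 ppm and -1.90 at 0 ppm, and every signal of the probeset was below its array's median.

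For probeset 211096_at of PBX2 the difference between chambers at 0.1 ppm differed from that at 0 ppm by -2.05 (SE 0.74). This gene was selected on its values at 0.1 ppm, so the number is a description, with no test. The difference was -1.59 at 0.1 ppm and 0.46 at 0 ppm, and without both arrays of low actin signal the value was -1.70. With 3 arrays a group, no search for single outlying arrays was made.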

How the results depend on the processing

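Of the 34 genes, 0 passed between chambers at 0, 0.1 and 0.5 ppm, 2 between 0.1 and 0 ppm, 1 between 0.5 and 0 ppm, 0 and 1 in the tests of the chamber difference at 0.1 and 0.5 ppm against that at 0 ppm, and 0 over the 6 groups. In 1 fit of all arrays the counts were 2 between chambers at 0 ppm, 1 at 0.5 ppm, 1 between 0.1 and 0 ppm and 1 for the chamber difference at 0.1 ppm. With the mean over a gene's probesets they were 2, 1 and 1 between chambers at 0, 0.1 and 0.5 ppm, 2 between 0.5 and 0 ppm and 1 over the 6 groups. With 32 added they were 1 between chambers at 0.5 ppm, 1 between 0.1 and 0 ppm and 0 between 0.5 and 0 ppm. Leaving out dim probesets left 20 of the 34 genes and took HOXB4, HOXC12 and HOXD12 out before the fit, so these could not pass. The counts were then 1 between chambers at 0.5 ppm and 0 between 0.1 and 0 ppm, between 0.5 and 0 ppm and for the chamber difference at 0.5 ppm. After quantile normalization they were 1 between 0.1 and 0 ppm and 1 for the chamber difference at 0.1 ppm. Without both arrays of low actin signal they were 1 between chambers at 0 ppm and 0 for the chamber difference at 0.5 ppm. Counts not named stayed within 1.5 times. With the replicate block, which pairs the chambers of an experiment, HOXB4 passed at 0 ppm (1 gene), in the chamber difference at 0.1 ppm (1) and over the 6 groups (1), and HOXB1 and HOXC12 in that at 0.5 ppm (2). Blocking the exposure chambers by number alone left 1, HOXB4, between 0.1 and 0 ppm, and the block changed no other count.

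Leaving out 1 array at a time gave 0 to 2 genes between chambers at 0 ppm, 0 to 1 at 0.1 ppm and 0 to 3 at 0.5 ppm (3 without the reference array of replicate 1), 0 to 2 between 0.1 and 0 ppm, 1 to 2 between 0.5 and 0 ppm, 0 to 1 and 0 to 3 for the chamber differences at 0.1 and 0.5 ppm, and 0 to 2 over the 6 groups. Without replicate 3 of the exposure chamber at 0.5 ppm the median difference between chambers at 0.5 ppm was 0.06 over all 34 genes and 0.37 over the HOXC genes. With 32 added the HOXC medians between chambers were -0.29, -0.20 and -0.03 at 0, 0.1 and 0.5 ppm, against -0.47, -0.50 and -0.04 as deposited. Without dim probesets, which left 5 of the 9 HOXC genes, they were -0.35, -0.32 and -0.07. HOXB4 between 0.1 and 0 ppm kept its direction in these fits (1.31 to 2.91), as did HOXD12 (0.92 to 1.74), HOXD12 between 0.5 and 0 ppm (1.45 to 2.21) and HOXC12 in the chamber difference (2.54 to 4.24). No value changed sign among the genes that passed. The cause of these changes was not tested. Signals under the array median on some or all arrays limit what the data can show for 16 of the 34 genes. The 3 arrays a group and the lack of any adjusted call limit it for all 34.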
